A study of Mus musculus with 12 samples.

Results

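Neutrophil and granulocyte precursor genes were followed in spleen RNA of 12 male ICR mice, an outbred stock. The 38 genes were listed by mouse symbol, and all 38 were found among the 18221 genes of the files. They fall into 3 classes by the stage at which developing neutrophils are known to use them: 8 genes of the precursor stage, 11 genes of secondary and tertiary granules, and 19 genes of receptors and effectors of mature neutrophils. Of these, 12 genes (Lyz2, Itgam, Il1b, Clec5a, Fpr1, Fpr2, Anxa1, Alox5ap, Trem1, Mcemp1, Csf3r and Hp) are also used by other myeloid cells.

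Con-sa mice were given saline and received neither busulfan nor a transplant. B-sa mice were also given saline, after 1 injection of the alkylating agent busulfan at 40 mg/kg at 3 weeks of age. B+Con-FMT and B+A10-FMT mice received the same busulfan dose and then, by mouth each day for 2 weeks, intestinal contents (fecal microbiota transplantation, FMT) from donors given water or alginate oligosaccharide at 10 mg/kg. All mice were sampled at 8 weeks of age, with 3 mice in each of the 4 groups. Donor contents were pooled within each donor group, so the 3 mice of a transplant arm do not stand for 3 separate donors. Whether they received 1 pool or more is not stated. Abundance is given as RPKM, reads scaled by transcript length and by the mapped reads of the library, summed over the transcripts of a gene.

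Neutrophils arise from granulocyte-monocyte progenitors, in the bone marrow and, in mice, also in the red pulp of the spleen. Promyelocytes make the serine proteases and myeloperoxidase of the primary (azurophil) granules. Myelocytes and metamyelocytes then make the secondary (specific) granule proteins, and later cells the gelatinase granules. Surface receptors for chemokines and formyl peptides, which allow the cell to leave for the blood and find its target, belong to the last steps. RNA for primary granule proteins is therefore a sign of immature cells, and RNA for these chemokine and formyl peptide receptors is a sign of mature ones.

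The libraries were close to each other in depth, with 14100000 to 14800000 reads per mouse estimated from the steps between low RPKM values. Of the summed RPKM the 38 genes held 0.558% to 0.580% (Con-sa mice), 0.815% to 1.14% (B-sa mice), 0.573% to 0.761% (B+Con-FMT mice) and 0.577% to 1.13% (B+A10-FMT mice). Markers of lymphocytes, red pulp macrophages and erythroid cells were present in every mouse. Hbb-bs, an adult beta globin gene, was at 25330.5, 45902 and 20289.5 RPKM in the Con-sa mice and at 30.5, 17.3 and 9.2 RPKM in the B-sa mice. It was at 36.4, 20929.6 and 4024 RPKM in B+Con-FMT and 8916, 13234 and 10623 RPKM in B+A10-FMT, so the mice of this outbred stock also differed in a gene whose use varies between mouse strains. Con-sa and B-sa did not overlap in it, and a difference in genetic background and the busulfan treatment cannot be told apart in that comparison. The first B+Con-FMT mouse, the one of its group with neutrophil genes near Con-sa, also had low Hbb-bs, as the B-sa mice did. Apart from a scaling by the totals outside globin genes, under which 9 of the 38 genes and 13.3% of all genes tested were called in B-sa against Con-sa, its part in the results below was not tested. Genes of acinar cells of the pancreas, which lies next to the spleen, summed to 0.047% to 1.30% of RPKM per mouse.

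In untreated spleen the abundance of the genes differed widely. Lyz2, which encodes lysozyme and is shared with macrophages, was the highest at 1250.05, 1370.4 and 1310.2 RPKM in the 3 Con-sa mice. S100a8 and S100a9, whose proteins form the calprotectin dimer of the neutrophil cytosol, were at 676, 695 and 648 RPKM and at 713, 747 and 710.2 RPKM, with S100a9 above S100a8 in every mouse. Next came Ngp, a cathelin-like protein of secondary granules, at 340.2, 360.1 and 364 RPKM, and Camp, the cathelicidin precursor, at 181, 186 and 208 RPKM. The precursor genes were less abundant, with Elane (neutrophil elastase) at 33.5, 33 and 37.6 RPKM and Mpo (myeloperoxidase) at 29.6, 29.6 and 30.5 RPKM leading the class, and the mice did not overlap between them. The lowest member was Itgb2l, a beta integrin subunit, at 0.86, 0.57 and 0.79 RPKM, and Trem1 and Clec5a, both activating myeloid receptors, lay between 1.26 and 2.04 RPKM.

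The first comparison asked whether spleens of busulfan-treated mice differed from untreated spleens. Of the 38 genes, 11 were called higher in B-sa and 0 lower, while 4.73% of the 12671 genes tested were called higher and 9.78% lower (limma on log2(RPKM + 1), adjusted p under 0.05 over all genes tested). The 11 were Prtn3, Ctsg and Ms4a3 of the precursor stage, Ltf, Camp and Cd177 of the granules, and Retnlg, Mcemp1, Anxa1, Clec5a and Wfdc21 of the receptors and effectors. The median log2 fold change over the 38 genes was 0.71, which is 1.63-fold, against -0.04 over all genes tested. In 32 of the 38 the 3 B-sa mice were all above the 3 Con-sa mice, a pattern that 11.2% of all genes tested showed. At an unadjusted p under 0.05 the count was 27 of 38, against 31.3% of all genes. In bulk spleen RNA, more cells of a type and more RNA per cell cannot be told apart.

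The size of the difference followed the order of the classes. The median log2 fold change was 1.27 (2.42-fold) in the precursor class, 0.96 (1.94-fold) in the granule class and 0.49 (1.40-fold) in the receptor and effector class.

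**Figure D1:**
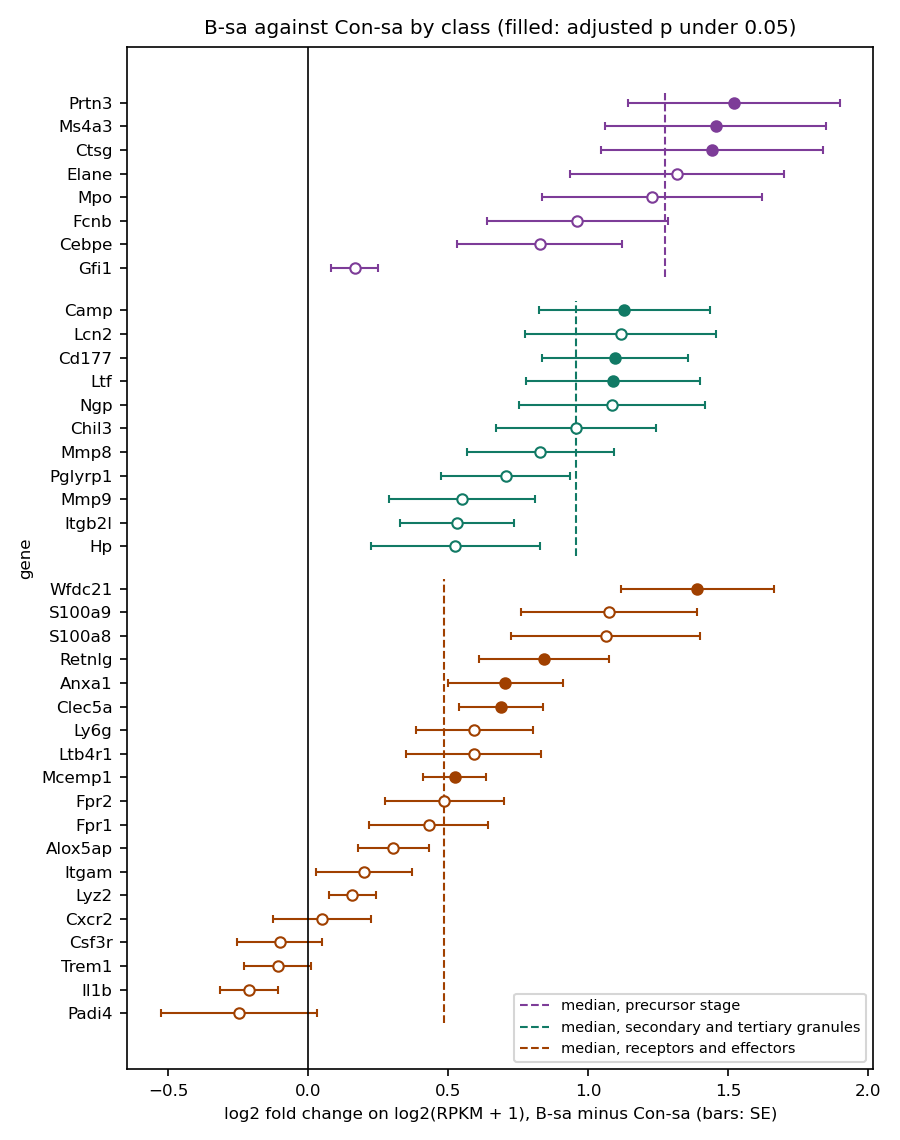
Log2 fold change of each of the 38 genes between B-sa and Con-sa (x axis, on log2(RPKM + 1), bars are SE from limma, 3 mice a group), in 3 classes with dashed lines at the class medians of 1.27, 0.96 and 0.49. Filled points are the 11 genes with an adjusted p under 0.05, and Cxcr2, Csf3r, Trem1, Il1b and Padi4 lie near or below 0.

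Of the 8 precursor genes 3 were called, and they had the widest gaps of the class. Prtn3, proteinase 3, was at 21.2, 19.9 and 18.01 RPKM in the Con-sa mice and at 58.3, 85.2 and 39.6 RPKM in the B-sa mice. The lowest B-sa mouse was thus above the highest Con-sa mouse, and the means differed 3.1-fold (log2 fold change 1.52 ± 0.38, SE, adjusted p = 0.0335 by limma). Ctsg, cathepsin G, was at 8.84, 9.03 and 8.92 RPKM in Con-sa and at 25.03, 36.9 and 18.9 RPKM in B-sa (log2 fold change 1.44 ± 0.40, adjusted p = 0.045). Ms4a3, a membrane protein of the granulocyte-monocyte progenitor and promyelocyte, was at 5.71, 7.75 and 5.22 RPKM and at 20.3, 24.2 and 13.03 RPKM (log2 fold change 1.46 ± 0.39, adjusted p = 0.0428). In each of these 3 genes the B-sa mice stood in the same order, with the second mouse highest and the third lowest.

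Elane and Mpo, the most abundant genes of the class, had gaps of similar size that did not pass the threshold. Elane was at 33.5, 33 and 37.6 RPKM in Con-sa and at 85.5, 123 and 64.1 RPKM in B-sa (log2 fold change 1.32 ± 0.38, adjusted p = 0.0538). Mpo was at 29.6, 29.6 and 30.5 RPKM and at 70.6, 104 and 49.5 RPKM (log2 fold change 1.23 ± 0.39, adjusted p = 0.0707). For both, no B-sa mouse overlapped a Con-sa mouse, and the exact permutation test of 3 against 3 gave its smallest possible two-sided p, 0.1. Fcnb, ficolin B, differed by 0.96 ± 0.32 on the log2 scale (adjusted p = 0.0789), and Cebpe, the transcription factor that granulocytes need for secondary granules, by 0.83 ± 0.29 (adjusted p = 0.0862). Gfi1, a transcriptional repressor required for granulopoiesis and also used by lymphoid cells and stem cells, differed least, by 0.17 ± 0.08 (adjusted p = 0.195), and by -0.21 when only its highest transcript was counted.

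The granule genes formed the most even class, with log2 fold changes from 0.53 to 1.13, and all 11 values were positive. Camp, whose product is cleaved to the antimicrobial peptide of secondary granules, was at 181, 186 and 208 RPKM in Con-sa and at 419, 551 and 321 RPKM in B-sa (log2 fold change 1.13 ± 0.30, adjusted p = 0.0419, limma). Ltf, lactoferrin, the iron-binding protein of the same granules, was at 58.6, 57.99 and 56.98 RPKM and at 111, 166 and 105 RPKM (log2 fold change 1.09 ± 0.31, adjusted p = 0.0491). Cd177, a surface glycoprotein of neutrophils that is also stored in these granules, was at 10.1, 8.72 and 10.6 RPKM and at 20.6, 28.7 and 18.01 RPKM (log2 fold change 1.10 ± 0.26, adjusted p = 0.0264). These 3 genes were called, and no B-sa mouse overlapped a Con-sa mouse in any of them.

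Ngp, the most abundant granule gene, was at 340.2, 360.1 and 364 RPKM in Con-sa and at 702, 1016 and 599.7 RPKM in B-sa (log2 fold change 1.08 ± 0.33, adjusted p = 0.0617). Lcn2, the siderophore-binding lipocalin, had a log2 fold change of 1.11 ± 0.34 (adjusted p = 0.0617), and Chil3, a chitinase-like protein, of 0.95 ± 0.29 (adjusted p = 0.0567). These genes missed the threshold by a small margin, as did Mmp8, neutrophil collagenase, at 0.83 ± 0.26 (adjusted p = 0.0632) and Pglyrp1, a peptidoglycan-binding protein, at 0.70 ± 0.23 (adjusted p = 0.0704). The remaining granule genes were Itgb2l at 0.53, Mmp9 (gelatinase B of the tertiary granules) at 0.55 and Hp (haptoglobin) at 0.53 on the log2 scale, with adjusted p from 0.0959 to 0.271. Hp was the granule gene whose groups overlapped.

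The receptor and effector class was the most divided. Wfdc21, a small secreted protein of the whey acidic protein family, was at 9.68, 9.8 and 5.5 RPKM in Con-sa and at 18.2, 30.9 and 20.9 RPKM in B-sa (log2 fold change 1.39 ± 0.27, adjusted p = 0.0136, limma). Retnlg, resistin-like gamma, was at 44.4, 43.1 and 44 RPKM and at 77.1, 93.9 and 69.1 RPKM (log2 fold change 0.84 ± 0.23, adjusted p = 0.0423). Clec5a, which signals with the adaptor Dap12, was at 1.61, 2.04 and 1.62 RPKM and at 3.88, 3.75 and 2.76 RPKM (log2 fold change 0.69 ± 0.15, adjusted p = 0.0129). None of the 3 genes overlapped between the groups, though Clec5a is low and the added 1 RPKM compresses its fold, since the ratio of its means was 1.97.

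Anxa1, annexin A1, a brake on neutrophil recruitment, was at 66.2, 69.5 and 61.3 RPKM in Con-sa and at 97.9, 134 and 94.8 RPKM in B-sa (log2 fold change 0.70 ± 0.21, adjusted p = 0.0496). Mcemp1, a membrane protein of myeloid and mast cells, was at 9.14, 9.06 and 11.7 RPKM and at 15.4, 15.98 and 12.8 RPKM (log2 fold change 0.52 ± 0.11, adjusted p = 0.0124). Its difference was the smallest of the 11 called, and so was its SE. S100a8 was at 1251, 1891 and 1173 RPKM and S100a9 at 1294, 2085 and 1311 RPKM in B-sa, above every Con-sa mouse (log2 fold change 1.06 ± 0.34 and 1.07 ± 0.31, adjusted p = 0.0696 and 0.0535), and neither passed the threshold.

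Cxcr2 and Csf3r differed little between the groups. Cxcr2, the receptor for the CXC chemokines that draw neutrophils out of the marrow, was at 8.91, 9.3 and 9.07 RPKM in Con-sa and at 7.86, 11.2 and 9.52 RPKM in B-sa (log2 fold change 0.05 ± 0.17, adjusted p = 0.871). Csf3r, the receptor of granulocyte colony-stimulating factor, was at 19.4, 25.2 and 22.7 RPKM and at 20.4, 22.2 and 19.6 RPKM (log2 fold change -0.10 ± 0.15, adjusted p = 0.684). In both genes the groups overlapped. Padi4, the deiminase that citrullinates histones in neutrophil extracellular traps, had a log2 fold change of -0.25 ± 0.28 (adjusted p = 0.579) and Trem1 of -0.11 ± 0.12 (adjusted p = 0.565). With only the highest transcript of each gene counted, Csf3r (0.05) and Trem1 (0.13) changed sign. Il1b, interleukin 1 beta, was at 18.2, 17.3 and 17.8 RPKM in Con-sa and at 14.3, 17.2 and 14.3 RPKM in B-sa, and was the gene whose B-sa mice all lay below the Con-sa mice, as 22.8% of all genes tested did (log2 fold change -0.21 ± 0.10, adjusted p = 0.182).

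The other receptors lay between. Fpr1 and Fpr2, which bind formylated bacterial peptides, had log2 fold changes of 0.43 ± 0.21 and 0.49 ± 0.21, and Ltb4r1, the leukotriene B4 receptor, of 0.59 ± 0.24 (adjusted p from 0.123 to 0.195), and in all 3 genes every B-sa mouse was above every Con-sa mouse. Alox5ap, the protein that presents arachidonic acid to 5-lipoxygenase, was at 0.30 ± 0.13, Itgam, the CD11b integrin subunit, at 0.20 ± 0.17 and Lyz2 at 0.16 ± 0.08 (adjusted p from 0.129 to 0.462). Ly6g, the surface antigen by which mouse neutrophils are sorted, was at 7.92, 7.78 and 8.26 RPKM in Con-sa and at 12.7, 14.04 and 11.1 RPKM in B-sa (log2 fold change 0.59 ± 0.21, adjusted p = 0.0818). One predicted transcript held 93.9% of its RPKM, and Ly6 genes are a family of close copies, so its level is uncertain. With curated transcripts only, its log2 fold change was -0.98.

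**Figure D2:**
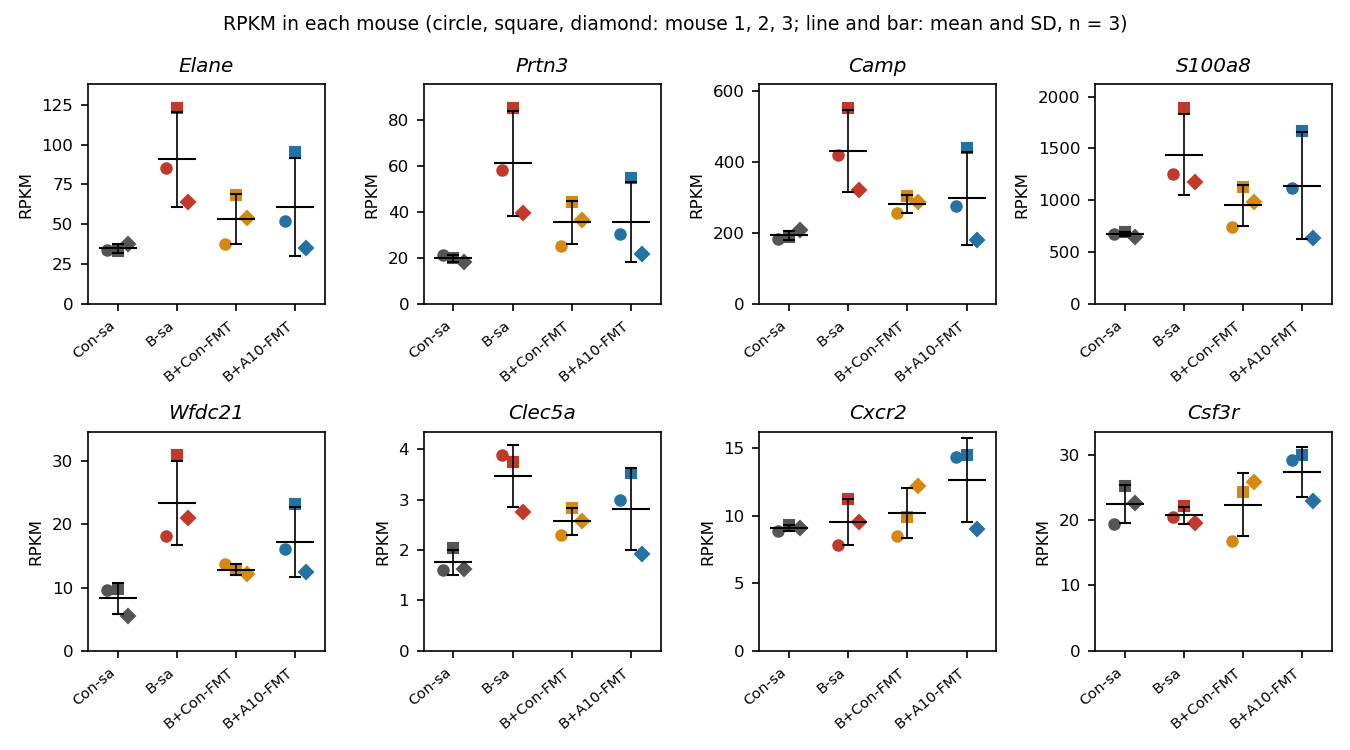
RPKM (y axis, linear from 0) of 8 genes in each of the 12 mice, with symbols for mouse 1, 2 and 3 of each group and the mean and SD (n = 3) in black. Elane, Prtn3, Camp, S100a8, Wfdc21 and Clec5a lie higher in all 3 B-sa mice than in any Con-sa mouse, while the groups overlap for Cxcr2 and Csf3r.

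The difference between the classes could be read within each mouse. There the scaling of the library cancels only in part, since the added 1 RPKM keeps it from cancelling in low genes. The mean of the precursor genes minus the mean of the receptor and effector genes, each relative to Con-sa on the log2 scale, was 0.80, 0.84 and 0.37 in the 3 B-sa mice and between -0.04 and 0.05 in the Con-sa mice. The classes overlapped in their single genes, since Wfdc21, S100a8 and S100a9 of the receptor and effector class had log2 fold changes of 1.06 to 1.39. The difference of the class medians was 0.79, and it was 0.56 without the genes that other myeloid cells also use. Over the 26 genes not listed as shared with other myeloid cells (Gfi1, used by lymphoid cells, among them) the median log2 fold change was 1.01, against 0.37 over the 12 shared ones.

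The count of 11 depended on which mice were fitted. Without the second B-sa mouse, which had the highest value of all 12 mice in 26 of the 38 genes, 1 gene (Wfdc21) was called and the median log2 fold change was 0.59. Over all genes tested, in either direction, 4.02% were called in that fit, against 14.5% with all mice. Without any 1 of the Con-sa mice 3 genes were called (Wfdc21, Clec5a and Mcemp1), with 6.28% to 7.43% of all genes. Without the second or the third B+A10-FMT mouse, which enter through the shared estimate of the spread, 22 or 20 were called, with 12.4% and 13.5% of all genes. The count was 4 without the first B-sa mouse, 5 without the third B+Con-FMT mouse and 5 without the first B+A10-FMT mouse, with 16.6%, 13.4% and 12.6% of all genes. In every one of these fits 33 or 34 of the 38 values were positive and 0 genes were called lower.

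The next comparisons asked whether the transplants changed the level seen after busulfan alone, and both share the 3 B-sa mice. Between B+Con-FMT and B-sa 0 of the 38 genes were called by limma, and 0.844% of all genes tested were. The median log2 fold change of the 38 genes was -0.49, and 34 values were negative. It was -0.30 without the second B-sa mouse and -0.32 without the first B+Con-FMT mouse. At an unadjusted p under 0.05 there were 7 of 38, against 18.4% of all genes. In 16 genes, 9 of them among the 11 granule genes, the 3 B+Con-FMT mice were all below the 3 B-sa mice, as in 9.05% of all genes tested. The class medians were -0.75 for the precursor, -0.54 for the granule and -0.33 for the receptor and effector genes. The first minus the last of these was -0.42, and it was -0.23 without the second B-sa mouse, -0.25 without the first B+Con-FMT mouse and -0.26 without the genes that other myeloid cells share.

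Precursor genes in B+Con-FMT stood between the other 2 groups. Prtn3 was at 25.2, 44.2 and 36.5 RPKM in the B+Con-FMT mice (log2 fold change to B-sa -0.74 ± 0.38, adjusted p = 0.349). Ms4a3 was at 6.24, 12.9 and 9.33 RPKM (-0.95 ± 0.39, adjusted p = 0.251), and Ctsg at 9.44, 21.2 and 16.6 RPKM. The first B+Con-FMT mouse lay near the Con-sa mice in these genes, and the other 2 lay between Con-sa and the B-sa mean. The same held for Elane, at 37.4, 68.5 and 54.1 RPKM, and for Mpo, at 27.4, 50.8 and 42.6 RPKM.

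Of the 11 granule genes, 9 lay below B-sa without overlap in B+Con-FMT, and Pglyrp1 and Hp overlapped. Camp was at 254, 303 and 286 RPKM and Ngp at 369, 526 and 538 RPKM in the 3 mice. Ltf was at 56.5, 86.5 and 85.6 RPKM (log2 fold change to B-sa -0.72 ± 0.31, adjusted p = 0.262). Cd177 was at 10.4, 15.3 and 17.8 RPKM (-0.60 ± 0.26, adjusted p = 0.262). In all 4 genes every B+Con-FMT mouse was below every B-sa mouse, and none of the 4 was called.

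Among the receptors and effectors, Wfdc21 was at 13.7, 12.8 and 12.1 RPKM in B+Con-FMT (log2 fold change to B-sa -0.78 ± 0.27, adjusted p = 0.19). Anxa1 was at 63.02, 76.7 and 86.8 RPKM (-0.52 ± 0.21, adjusted p = 0.231). In both genes the B+Con-FMT mice were all below the B-sa mice. Retnlg was at 42.01, 71.5 and 61.7 RPKM, Clec5a at 2.29, 2.83 and 2.58 RPKM and Mcemp1 at 10.7, 13.6 and 13.4 RPKM, and these 3 overlapped with B-sa. S100a9 was at 864, 1220.02 and 1161 RPKM and S100a8 at 740.05, 1131 and 985 RPKM, with every value below the lowest B-sa mouse. Lyz2 was at 1269.7, 1518 and 1489.9 RPKM.

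Between B+A10-FMT and B-sa 0 of the 38 genes were called, and 5.27% of all genes tested were. The median log2 fold change was -0.40 with 31 negative values, and 4 of 38 genes had an unadjusted p under 0.05, against 24.5% of all genes. Without the third B+A10-FMT mouse the median was -0.10, without the second it was -0.60, and without the second B-sa mouse it was -0.19. The class medians were -0.65, -0.43 and -0.15 in the order precursor, granule, and receptor and effector. The first minus the last was -0.50, and it was -0.76 without the second and -0.27 without the third B+A10-FMT mouse, and -0.24 without the shared genes.

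The spread within B+A10-FMT was wide. Prtn3 was at 30.4, 54.7 and 21.4 RPKM in its 3 mice, Ctsg at 11.7, 27.7 and 11.4 RPKM and Ms4a3 at 11.4, 19.7 and 6.6 RPKM. Elane was at 52.2, 95.2 and 34.9 RPKM and Mpo at 39.4, 85.03 and 33.8 RPKM. In each of these precursor genes the second mouse was within the B-sa range and the third near Con-sa. Camp was at 275, 437 and 178 RPKM and Ngp at 515, 891 and 352 RPKM. Ltf was at 88.2, 138 and 58.6 RPKM and Cd177 at 15.5, 21.6 and 10.98 RPKM. These 4 granule genes had the same mouse order as those 5 precursor genes, the second highest and the third lowest.

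The receptors and effectors called in B-sa had the third B+A10-FMT mouse lowest as well. Retnlg was at 74.3, 77.6 and 45.8 RPKM, Wfdc21 at 16.03, 23.3 and 12.4 RPKM and Clec5a at 2.99, 3.53 and 1.92 RPKM. Anxa1 was at 89.9, 123 and 68.7 RPKM and Mcemp1 at 13.8, 13.5 and 12.3 RPKM. Of the most abundant genes, S100a9 was at 1164, 1717 and 717 RPKM, S100a8 at 1116, 1668 and 638 RPKM and Lyz2 at 1589, 1585 and 1316 RPKM. In S100a8 and S100a9 the second mouse was within the B-sa range and the third within or below the range of the untreated mice.

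The 7 positive values in B+A10-FMT were those of Cxcr2, Csf3r, Trem1, Fpr1, Itgam, Lyz2 and Il1b, all of the receptor and effector class. Trem1 was at 2.46, 2.12 and 1.42 RPKM in B+A10-FMT and at 1.22, 1.1 and 1.26 RPKM in B-sa (log2 fold change 0.44 ± 0.12, adjusted p = 0.0528, limma), and it passed the threshold when the third B+A10-FMT mouse was left out and under 2 other settings. Csf3r was at 29.2, 29.9 and 22.9 RPKM (log2 fold change to B-sa 0.38 ± 0.15, adjusted p = 0.163). These were the 2 genes whose B+A10-FMT mice were all above the B-sa mice, which 19.7% of all genes tested were. Cxcr2 was at 14.4, 14.5 and 9.06 RPKM (log2 fold change to B-sa 0.36 ± 0.17, adjusted p = 0.23), with 2 mice above every Con-sa and B-sa mouse. In B+Con-FMT Cxcr2 was at 8.48, 9.95 and 12.2 RPKM, Csf3r at 16.9, 24.3 and 25.9 RPKM and Trem1 at 1.47, 1.57 and 1.81 RPKM, with no called difference to B-sa.

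The transplant arms were then compared with each other. None of the 38 genes was called between B+A10-FMT and B+Con-FMT, while 10.4% of all genes tested were, and 1 gene (Itgam, log2 fold change 0.46 ± 0.17, adjusted p = 0.11) had an unadjusted p under 0.05, against 28.9% of all genes. The median log2 fold change was 0.12, with 31 positive values, and the mean over the 38 genes had a pooled SD of 0.29 between mice of a group. The median depended on single mice. It was -0.06 without the second B+A10-FMT mouse and 0.40, with 38 positive values, without the third. It was 0.01, 0.24 and 0.19 without the first, the second and the third B+Con-FMT mouse. A p that misses the threshold does not show equal levels.

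Against untreated mice, 0 of 38 genes were called in B+Con-FMT (8.87% of all genes tested) and 0 in B+A10-FMT (0.41%). Both comparisons share the Con-sa mice. The median log2 fold changes were 0.31 and 0.48, with 35 and 37 positive values. The second was 0.28 without the second B+A10-FMT mouse and 0.73 without the third. All 3 treated mice were above the Con-sa mice in 13 genes for B+Con-FMT (10.6% of all genes) and in 9 for B+A10-FMT (11.7%). At an unadjusted p under 0.05 there were 3 genes in B+Con-FMT, against 27.4% of all genes, and 12 in B+A10-FMT, against 13.5%. Among the 12 were Wfdc21 (log2 fold change 0.96 ± 0.27, adjusted p = 0.209), Mcemp1 (0.38 ± 0.11, adjusted p = 0.193) and Fpr1 (0.55 ± 0.21, adjusted p = 0.308). None of the 12 was a precursor gene, but by size the precursor class was highest. Its median in B+A10-FMT was 0.675, against 0.533 for the granule and 0.379 for the receptor and effector genes. The first minus the last was 0.296, and it was -0.005 without the second B+A10-FMT mouse. All 3 B+A10-FMT mice lay above Con-sa in 4 of 8 precursor, 2 of 11 granule and 3 of 19 receptor and effector genes. Padi4 went the other way, at 4.77, 5.57 and 5 RPKM for untreated mice against 1.32, 3.07 and 3.01 RPKM (B+Con-FMT) and 4.7, 3.38 and 1.96 RPKM (B+A10-FMT). Every transplanted mouse lay below every Con-sa mouse, though the closest B+A10-FMT and Con-sa values were 4.7 and 4.77 RPKM. Neither difference was called by limma (log2 fold change -0.86 ± 0.28 and -0.54 ± 0.28, adjusted p = 0.0793 and 0.424).

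**Figure D3:**
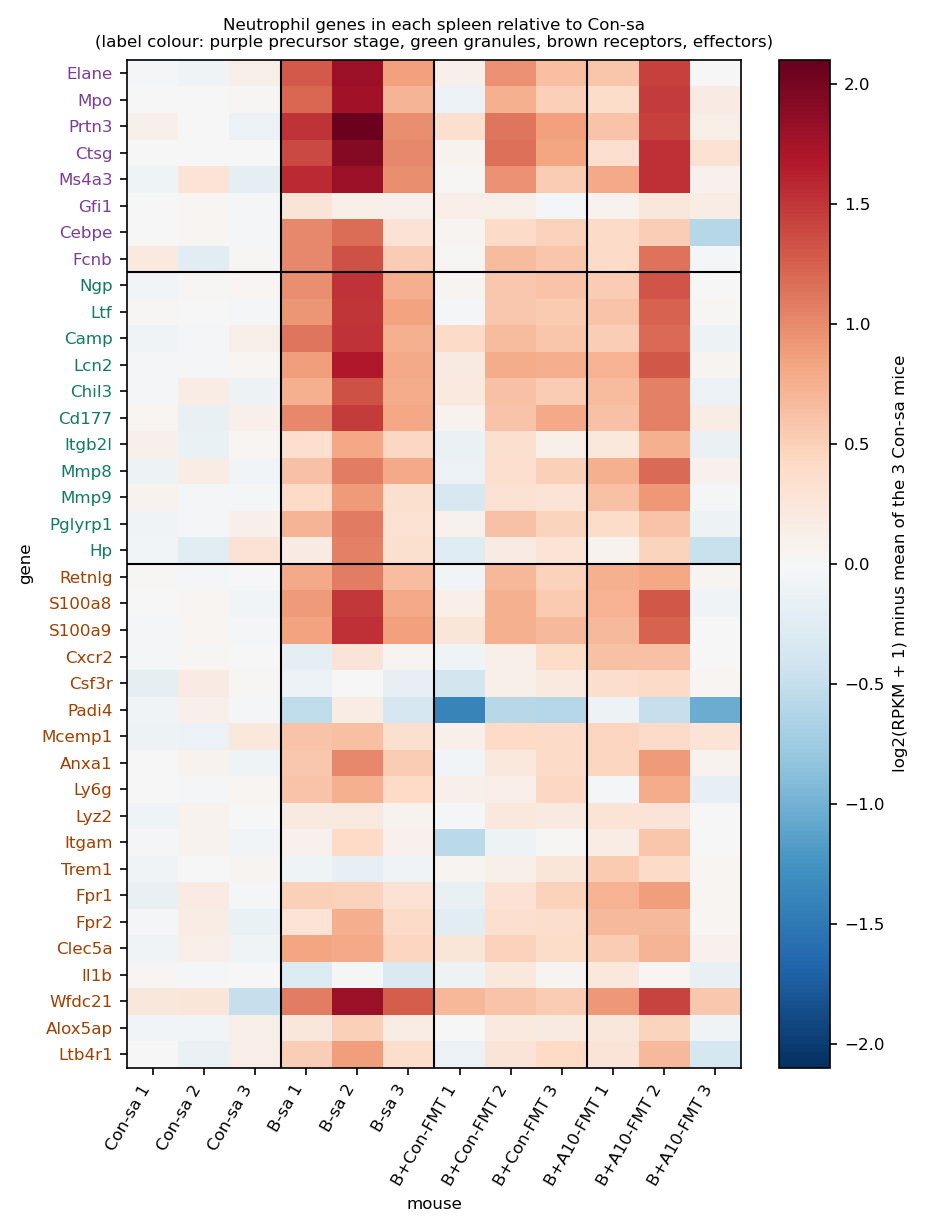
Log2(RPKM + 1) of each of the 38 genes (rows, in 3 classes) in each of the 12 mice (columns) minus the mean of the 3 Con-sa mice, red for higher and blue for lower. The first B+Con-FMT and the third B+A10-FMT mouse are close to Con-sa, and the second B-sa mouse is the reddest column.

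Within the treated groups the genes varied together from mouse to mouse. The median over the 38 genes of the ratio of the highest to the lowest mouse, in RPKM + 1, was 1.14 for Con-sa mice, 1.49 for B-sa mice, 1.46 for B+Con-FMT mice and 1.92 for B+A10-FMT mice, whereas over all genes tested it was 1.11 to 1.14 in every group. In B+A10-FMT the median ratio was 2.39 for the precursor genes, 2.13 for the granule genes and 1.55 for the receptors and effectors. The second B+A10-FMT mouse was the highest of its group in 33 genes and the third was the lowest in 37. The first B+Con-FMT mouse was the lowest of its group in 36 genes. Counted against the highest Con-sa mouse, 32, 35 and 34 genes were above it in the 3 B-sa mice. The counts were 14, 34 and 34 in the B+Con-FMT mice and 35, 37 and 9 in the B+A10-FMT mice, while 20.4% to 33.5% of all genes tested were above it in these 9 mice. Below the lowest Con-sa mouse were 13 genes in the first B+Con-FMT mouse (42.3% of all genes tested) and 11 in the third B+A10-FMT mouse (23.1%). There were 1 to 4 in the other 7 mice (28.4% to 46.3% of all genes).

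**Figure D4:**
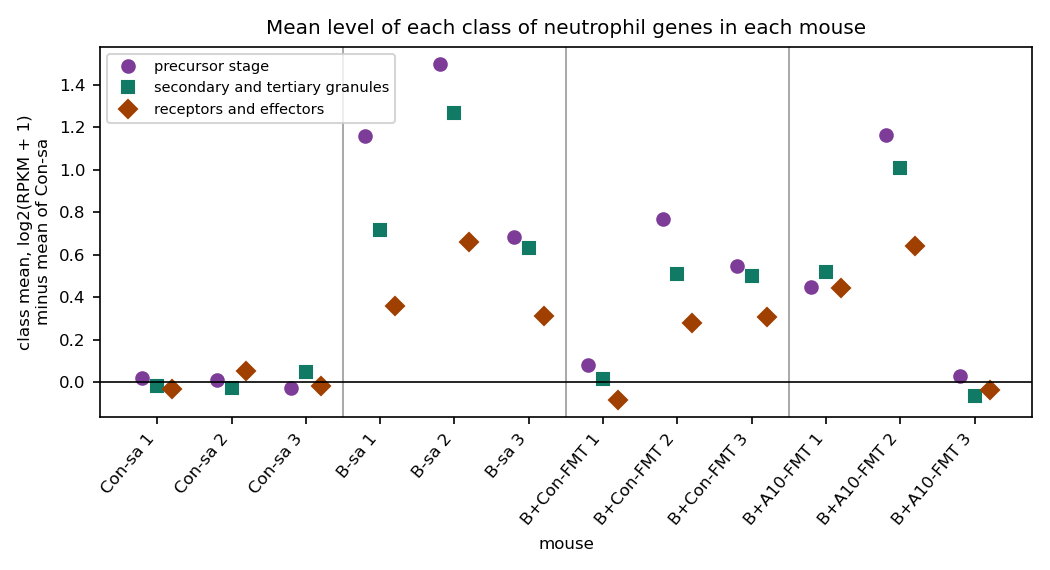
Mean over the genes of each class of log2(RPKM + 1) minus the Con-sa mean (y axis) in each mouse (x axis), 1 point per class and mouse. In B-sa the precursor mean is 1.16, 1.5 and 0.68 and the receptor and effector mean 0.36, 0.66 and 0.31, and in the first B+Con-FMT and the third B+A10-FMT mouse the 3 class means lie between -0.085 and 0.081.

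The first B+Con-FMT and the third B+A10-FMT mouse were also among those with the most RNA of pancreatic acinar cells. The 6 acinar genes (Cpa1, Cela1, Ctrb1, Prss2, Pnlip and Amy2a5) summed to 1.30%, 1.20% and 0.821% of RPKM in the B+Con-FMT mice and to 0.047%, 0.082% and 0.999% in the B+A10-FMT mice, the third of which had the lowest neutrophil genes. The sums were 0.334%, 0.752% and 0.137% in Con-sa and 0.331%, 0.092% and 0.049% in B-sa. The second and the third B+Con-FMT mice had high acinar sums and high neutrophil genes as well. The part of these sums in the neutrophil values was not tested.

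Neutrophil genes outside the 38 were read from a further list. Of 26 further genes of granules, the phagocyte oxidase and neutrophil regulation, 24 passed the filter of at least 1 RPKM in 3 mice. Of these, 1 (Lbp) was called higher and 1 lower in B-sa, against 4.73% and 9.78% of all genes tested, so neither count stood out. The median log2 fold change over the 24 was 0.08. Lbp, which carries lipopolysaccharide to CD14, was at 2.25, 2.27 and 2.54 RPKM in Con-sa and 3.17, 3.8 and 2.74 RPKM in B-sa (log2 fold change 0.33 ± 0.10, adjusted p = 0.0462, limma). Many genes of this list, such as the oxidase subunits, are expressed by B cells and macrophages too.

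Serpinb1a, an inhibitor of elastase and proteinase 3, was at 95.9, 83.02 and 89.1 RPKM in B-sa and 65.3, 67.2 and 72.8 RPKM in B+Con-FMT, and it fell in B+Con-FMT relative to B-sa (log2 fold change -0.38 ± 0.07, adjusted p = 0.0395) and relative to Con-sa (-0.43 ± 0.07, adjusted p = 0.00702). Cd33, a sialic acid-binding receptor of myeloid cells, was called higher for B+A10-FMT against B+Con-FMT, at 9.68, 11.4 and 8.42 RPKM against 4.87, 6.69 and 6.97 RPKM (log2 fold change 0.60 ± 0.12, adjusted p = 0.0104). Of the 24 genes tested in this list, 1 was called in B+Con-FMT against B-sa (lower), where 0.844% of all genes tested were called. In B+Con-FMT against Con-sa 4 were called, all lower (8.87% of all genes). Between the transplant arms 4 were called, all higher in B+A10-FMT (10.4% of all genes).

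Of 10 transcription factors of granulopoiesis 1 was called lower in B-sa, near the 9.78% of all genes tested. Irf8, which directs progenitors to monocytes and away from granulocytes and is also used by B cells, was at 109.5, 118 and 111 RPKM in Con-sa and at 100.2, 80.8 and 88.6 RPKM in B-sa (log2 fold change -0.33 ± 0.08, adjusted p = 0.0229). Spi1, which encodes PU.1, was at 67.05, 66.98 and 71.8 RPKM and 64.8, 64.5 and 58.7 RPKM. Runx1, 1 of the 10, was called higher for B+A10-FMT against B-sa, at 10.5, 10.4 and 10.5 RPKM against 8.47, 8.35 and 9.06 RPKM (log2 fold change 0.25 ± 0.06, adjusted p = 0.0245). It was the only one of the 10 called there, where 5.27% of all genes tested were called. Of 16 ligand, cytokine and receptor genes 9 passed the filter, and 2 of these, Csf1 and Cxcl12, were called lower in B-sa, against 9.78% of all genes tested. Csf3, the gene of granulocyte colony-stimulating factor, was at most 0.16 RPKM, Csf2 at most 0.45 RPKM and Il6 at most 0.27 RPKM in any mouse, below the filter, and these 3 were not tested. Between the transplant arms 5 of the 9 were called, Csf1, Cxcl12 and Kitl higher and Tnf and Cxcr4 lower in B+A10-FMT, against 10.4% of all genes tested. Tnf, tumour necrosis factor, was at 8.49, 6.74 and 7.4 RPKM in B+Con-FMT and 5.19, 5.07 and 5.16 RPKM in B+A10-FMT (log2 fold change -0.47 ± 0.13, adjusted p = 0.0367).

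Cxcl12, which holds neutrophils and their precursors in place through Cxcr4, was at 274, 274 and 294 RPKM in Con-sa and 229.8, 235 and 222 RPKM in B-sa (log2 fold change -0.29 ± 0.09, adjusted p = 0.0395). In B+A10-FMT it rose to 345, 289 and 299 RPKM (against B-sa, log2 fold change 0.44 ± 0.09, adjusted p = 0.0169). Cxcr4, used by many leukocytes, was at 72.2, 78.1 and 81.6 RPKM in B-sa and 60.2, 61.5 and 61.8 RPKM in B+A10-FMT (log2 fold change -0.33 ± 0.07, adjusted p = 0.0245). Csf1, the macrophage growth factor, fell from Con-sa to B-sa (-0.32 ± 0.06, adjusted p = 0.00634) and rose from B-sa to B+A10-FMT (0.44 ± 0.06, adjusted p = 0.00248). Of the 9 genes tested, 2 were called higher and 1 lower for B+A10-FMT against B-sa, where 5.27% of all genes tested were called in either direction.

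Markers of other cells were read beside these values. Of 8 monocyte markers 0 were called between B-sa and Con-sa, and their sum was 239 to 273 RPKM in Con-sa and 257 to 332 RPKM in B-sa. By value 4 of the 8 were higher and 4 lower. Ccr2, the receptor by which monocytes leave the marrow, was at 8.83, 8.69 and 9.22 RPKM in Con-sa and 7.22, 7.28 and 7.8 RPKM in B-sa (log2 fold change -0.23 ± 0.07, adjusted p = 0.0538). Csf1r, the receptor of the macrophage growth factor, was at 70.6, 72.5 and 72.5 RPKM and 58.6, 61.5 and 62.8 RPKM (log2 fold change -0.23 ± 0.12, adjusted p = 0.189). Both lay lower in B-sa without overlap, and F13a1 and Ly6c2 lay higher without overlap. F13a1, a coagulation factor subunit, was at 6.6, 5.81 and 5.77 RPKM in Con-sa and 7.21, 12.2 and 10.5 RPKM in B-sa (log2 fold change 0.61 ± 0.25, adjusted p = 0.129). Ly6c2 was at 44.3, 53.9 and 35.2 RPKM in Con-sa and 63.8, 133 and 62.8 RPKM in B-sa (log2 fold change 0.87 ± 0.48, adjusted p = 0.25), with the second B-sa mouse highest, and in B+A10-FMT it was at 80.7, 111 and 33.98 RPKM, with the second mouse highest and the third lowest. Over all genes tested 4.73% were called higher and 9.78% lower in B-sa. Erythroblast markers were called higher in 4 of 8 (Klf1, Epor, Rhag and Tfrc) and proliferation genes in 4 of 6 (Top2a, Cdk1, Birc5 and Rrm2), with summed levels of 558 to 619 RPKM in Con-sa and 645 to 761 RPKM in B-sa for the latter. Of 6 B cell markers 4 were called lower in B-sa, Cd79a, Cd79b and Ms4a1 among them. T cell markers (0 of 5 tested), red pulp macrophage markers (0 of 10) and basophil and mast cell markers (0 of 4 tested) had none called, and of 5 eosinophil markers tested Epx was higher. The genes of the monocyte, erythroblast and proliferation lists were above 0 in every group. The part of these cells in the neutrophil result was not tested.

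Most of the 38 genes lie far apart, and a few are neighbours in the genome (GRCm38.p6). Prtn3 and Elane stand 3.1 kb apart on chromosome 10, Fpr1 and Fpr2 3.9 kb apart on chromosome 17, and S100a8 and S100a9 22.6 kb apart on chromosome 3. Camp, Ngp and Ltf follow each other on chromosome 9 with gaps of 570.4 kb and 596.3 kb. Of the neighbours, Prtn3 and Elane are both precursor genes, and Camp, Ngp and Ltf are all secondary granule genes with log2 fold changes of 1.13, 1.08 and 1.09 in B-sa. Ltb4r1 and Ctsg, 331.4 kb apart on chromosome 14, are of different classes, with log2 fold changes of 0.59 and 1.44. Close neighbours are not independent observations of a class.

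The 150 bases before the start sites of the neutrophil genes were read from RefSeq promoter entries for GRCm38.p6, which matched 33 of the 38 genes. Alox5ap, Wfdc21, Cebpe, Hp and Mmp9 had no entry. Letters known for 3 kinds of factors of myeloid cells were searched on both strands, TTNNGNAA for the C/EBP family, GAGGAA for PU.1 and AACTG for MYB, and matches can overlap. Below, capitals mark the C/EBP and PU.1 letters (or their reverse complement), and each window runs 5′ to 3′ toward the start site. Elane and Prtn3 are shown as neighbouring primary granule genes, Camp, Ltf and Cd177 as the granule genes called in B-sa, Ngp as the most abundant granule gene, and Cxcr2 and Csf3r as receptors that were not called in B-sa.

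Elane, chr10:79886162-79886311, plus strand: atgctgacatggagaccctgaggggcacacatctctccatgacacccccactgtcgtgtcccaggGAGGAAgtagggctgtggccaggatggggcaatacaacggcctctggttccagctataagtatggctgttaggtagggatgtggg
Prtn3, chr10:79879517-79879666, plus strand: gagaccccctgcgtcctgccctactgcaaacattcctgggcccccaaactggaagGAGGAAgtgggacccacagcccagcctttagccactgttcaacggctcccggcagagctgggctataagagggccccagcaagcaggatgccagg
Camp, chr9:109849457-109849606, minus strand: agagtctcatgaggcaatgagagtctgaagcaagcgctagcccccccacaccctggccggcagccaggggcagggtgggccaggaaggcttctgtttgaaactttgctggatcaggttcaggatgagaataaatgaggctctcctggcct
Ltf, chr9:111019142-111019291, plus strand: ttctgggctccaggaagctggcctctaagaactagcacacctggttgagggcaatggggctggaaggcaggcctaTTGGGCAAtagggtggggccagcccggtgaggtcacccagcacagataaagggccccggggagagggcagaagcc
Cd177, chr7:24760312-24760461, minus strand: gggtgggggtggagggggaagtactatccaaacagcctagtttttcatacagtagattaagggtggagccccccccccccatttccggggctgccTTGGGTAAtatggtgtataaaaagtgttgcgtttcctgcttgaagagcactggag
Ngp, chr9:110419658-110419807, plus strand: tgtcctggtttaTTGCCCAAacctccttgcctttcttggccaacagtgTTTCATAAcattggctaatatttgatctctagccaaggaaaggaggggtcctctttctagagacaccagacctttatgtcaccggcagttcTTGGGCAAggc
Cxcr2, chr1:74153844-74153993, plus strand: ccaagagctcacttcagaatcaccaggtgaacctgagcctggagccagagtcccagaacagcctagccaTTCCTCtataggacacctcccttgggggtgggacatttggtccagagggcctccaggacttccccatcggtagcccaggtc
Csf3r, chr4:126024509-126024658, plus strand: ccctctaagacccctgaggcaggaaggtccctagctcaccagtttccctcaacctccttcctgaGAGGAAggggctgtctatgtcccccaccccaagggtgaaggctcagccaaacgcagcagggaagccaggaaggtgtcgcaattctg

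Elane and Prtn3 both carried the PU.1 letters, starting 85 and 95 bases before the start site, and neither held the C/EBP letters in this window. Camp held none of the 3 sets of letters. Ltf and Cd177 held the C/EBP letters at 1 place each, and Ngp at 3 places. Cxcr2 and Csf3r held the PU.1 letters, starting 81 and 86 bases before the start, and no C/EBP letters. Of the 33 genes 2 (Gfi1 and Ly6g) have 2 windows, and a gene was counted if any of its windows held the letters. The C/EBP letters were present in 18 of the 33 genes (54.5%), against 25.5% of 27025 genes with an entry. The PU.1 letters were present in 13 (39.4%), against 16.4%, and the MYB letters in 13 (39.4%), against 27.4%. By class the C/EBP letters were in 3 of 7 precursor, 5 of 9 granule and 10 of 17 receptor and effector genes. The PU.1 letters were in 2 of 7, 3 of 9 and 8 of 17, and the MYB letters in 3 of 7, 4 of 9 and 6 of 17. The windows were not matched in base composition, and a match of letters is a description, not a binding site.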

How the data were processed

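Spleen RNA of 12 mice was sequenced by the authors, whose methods describe oligo(dT) selection, SOAPaligner and RPKM per gene; the submitters' processing notes instead name HISAT, Bowtie2 and the build mm10. Deposited values are RPKM per RefSeq transcript, so read counts were estimated from the steps between low values, and their number limits the precision. The annotation release is not given in the sources used here. RPKM was summed over 60654 transcripts to 18221 genes, of which 18101 were named from a RefSeq table. Genes that reached RPKM 1 in 3 or more mice (12671, all 38 neutrophil genes among them) were fitted on log2(RPKM + 1) with limma 3.58.1 (trend and robust, R 4.3.3), with group as the only factor, all 12 mice in 1 fit, and Benjamini-Hochberg adjustment over all genes tested in each of 6 comparisons, called at adjusted p under 0.05. Fold changes on this scale understate the change of low genes. Replicates are separate mice. Single genes were also compared with two-sided exact permutation tests, which cannot go below p = 0.1 with 3 against 3. The same-numbered mice of the groups did not vary together (r from -0.373 to 0.303), so the fit has no block.

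The neutrophil genes, their classes and the lists of granulopoiesis factors, further neutrophil genes, ligands and cytokines, monocytes, red pulp macrophages, eosinophils, basophils and mast cells, erythroblasts, B cells, T cells, acinar cells, proliferation and spleen markers were chosen with earlier results of these data known. Values in every mouse are given for called neutrophil genes and the most abundant of each class, and for at most 4 called genes of a list, and a few further genes were given so after their values were seen. Results for some genes of the further neutrophil and B cell lists are not reported here. The procedure was tested on simulated data. Alternatives were another pseudocount, filters, scalings, transcript choices, fits of the groups compared, a replicate block, and each mouse left out.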

Additional observations from a re-analysis of the deposited data

How the results depend on the processing

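The count of 11 neutrophil genes called in B-sa against Con-sa was 19 when only these 2 groups were fitted, 19 without the trend and robust settings, and 20 with a replicate block, in which 7.67%, 13.3% and 11.5% of all genes tested were called, against 14.5%. The 20 included all 11, and the block changed no other call. Under the other scalings, filters, pseudocount and transcript choices it was 8 to 12, with 4.44% to 15.7% of all genes tested. Leaving out each mouse in turn gave 1 to 22. In B+A10-FMT against B-sa, 1 gene (Trem1, higher) in place of 0 was called with RPKM of at least 1 required in every mouse and without the trend and robust settings, and leaving out mice gave 0 to 1, the 1 being Ly6g (lower) without the second B+A10-FMT mouse and Trem1 without the third. In B+Con-FMT against Con-sa 2 genes (Camp and S100a9) were called when only these groups were fitted (8.06% of all genes tested), and leaving out mice gave 0 to 1. The counts of 0 between the transplant arms and in the remaining comparisons stayed 0 in each setting run. The median over the 38 genes kept its direction in each comparison and setting except between the transplant arms without the second B+A10-FMT mouse (-0.061), and in B+A10-FMT against B-sa it ran from -0.604 to -0.097 with mice left out. The precursor minus receptor and effector difference of medians was 0.555 in B-sa against Con-sa and -0.244 in B+A10-FMT against B-sa without the genes shared with other myeloid cells, a choice made after seeing the data. With mice left out it ran from -0.764 to -0.272 in B+A10-FMT against B-sa, from -0.563 to -0.231 in B+Con-FMT against B-sa, from 0.135 to 0.376 in B+Con-FMT against Con-sa, from -0.315 to 0.067 between the transplant arms and from -0.005 to 0.46 in B+A10-FMT against Con-sa. In B-sa against Con-sa, 5 genes that were not called changed sign. With only the highest transcript the log2 fold change was 0.046 for Csf3r, -0.214 for Gfi1 and 0.129 for Trem1, with NM transcripts only it was -0.981 for Ly6g, and for Cxcr2 it ran from -0.064 to 0.168 with mice left out. The cause was not tested. With 3 mice a group and unequal spread between groups, calls near the threshold depend on single mice.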

Other observations

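Of 5 eosinophil genes tested, 3 were called lower and 2 higher for B+A10-FMT against B+Con-FMT, where 10.4% of all genes tested were called in either direction. Of 4 basophil and mast cell genes tested 0 were called in each of the 6 comparisons. Prg3, an eosinophil granule protein, was at 0.93, 2.5 and 1 RPKM (Con-sa), 2.66, 2.35 and 2.56 RPKM (B-sa), 4.51, 3.9 and 4.79 RPKM (B+Con-FMT) and 1.94, 1.14 and 2.26 RPKM (B+A10-FMT). It rose from Con-sa to B+Con-FMT (log2 fold change 1.18 ± 0.21, SE, adjusted p = 0.0084, limma) and was called lower for B+A10-FMT against B+Con-FMT (-0.98 ± 0.21, adjusted p = 0.0167). Prg2, the major basic protein, was at 5.76, 10.5 and 4.69 RPKM, 16.6, 12.7 and 19.8 RPKM and 7.64, 9.29 and 6.43 RPKM in untreated mice and in the arms B+Con-FMT and B+A10-FMT (log2 fold change 1.17 ± 0.26, adjusted p = 0.0279, and -0.97 ± 0.26, adjusted p = 0.0451, in the same comparisons). Epx, eosinophil peroxidase, was low throughout and differed in the same directions (0.76 ± 0.17, adjusted p = 0.0171, and -0.55 ± 0.17, adjusted p = 0.0498). Ccr3, the eotaxin receptor, was instead called higher for B+A10-FMT against B+Con-FMT, at 18.01, 17.8 and 13.7 RPKM against 8.12, 9.02 and 11.5 RPKM (0.73 ± 0.12, adjusted p = 0.00648). Il5ra, the interleukin 5 receptor subunit, was the other gene called higher, at 2.37, 1.38 and 3.43 RPKM against 1.13, 1.08 and 1.26 RPKM (0.61 ± 0.18, adjusted p = 0.0467).

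Of 10 red pulp macrophage genes 3 were called higher in B+A10-FMT against B-sa, where 0 of the 38 neutrophil genes and 5.27% of all genes tested were called in either direction. Spic, the factor that specifies these cells, was at 50.5, 55.4 and 53.99 RPKM in B-sa and 78.8, 80.97 and 67.7 RPKM in B+A10-FMT (0.50 ± 0.11, adjusted p = 0.0307). Slc40a1, the iron exporter ferroportin, was at 80.6, 103 and 106 RPKM and 138, 156 and 129 RPKM (0.55 ± 0.10, adjusted p = 0.0144). Mertk, a receptor for the uptake of apoptotic cells, was at 7.85, 9.82 and 10.3 RPKM and 11.7, 14.3 and 13.1 RPKM (0.45 ± 0.10, adjusted p = 0.0299). In the third B+A10-FMT mouse, the lowest of its group in 37 of the 38 neutrophil genes, these 3 genes lay above every B-sa mouse.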
